A study of Mus musculus with 12 samples.

Results

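The mRNA levels of 4 transglutaminase genes, Tgm1, Tgm2, Tgm3 and F13a1, were followed in brain tissue of 12 mice after experimental stroke or sham surgery. The members were taken by gene symbol from a table of 39756 genes, and all 4 were found. They were chosen by the level of Tgm1, among the most increased genes of the Vehicle group relative to the Sham group, so the values of that comparison are given as a description without a test. The animals were male C57BL/6J mice aged 9 to 10 weeks, with 4 mice in each of 3 groups. Sham mice had surgery without occlusion and received saline. Vehicle mice received saline and underwent transient middle cerebral artery occlusion (tMCAO) for 45 min followed by reperfusion, which injures the tissue fed by that artery. LJP mice had the same occlusion and received Laminaria japonica polysaccharide (LJP), a sulfated polysaccharide of brown seaweed, into the stomach once daily for 14 days before surgery and also afterwards. The sample labels give no dose for the LJP mice. The study compared a low, a middle and a high dose and then went on with the middle one, without naming it again for the sequenced mice. The time of collection of the sequenced mice was not given in the sources used here. Nothing in the sources tied mice of the same number to each other, all libraries carried 1 batch label, and the RNA came from whole tissue, in which fewer cells of a type and less RNA per cell cannot be told apart.

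Transglutaminases are calcium-dependent enzymes that join the side chain of a glutamine in one protein to a lysine in another, which leaves the proteins cross-linked and hard to degrade. Tgm1 is the membrane-bound enzyme that builds the cornified envelope of skin keratinocytes, and it also stands on the published list of genes that astrocytes induce after ischemia, the A2 list. Tgm2, tissue transglutaminase, is found in many cell types and on the cell surface binds fibronectin together with integrins. Tgm3 acts in the epidermis and the hair follicle. F13a1 encodes the catalytic A subunit of coagulation factor XIII, which cross-links fibrin and is made by monocytes, macrophages and the megakaryocyte lineage.

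Tgm1 (Entrez Gene 21816) lies on chr14:55700009-55713921 of GRCm38, minus strand, and overlaps no other gene of the table. Tgm2 (21817) lies on chr2:158116405-158146392, minus strand, and Tgm3 (21818) on chr2:129987794-130050399, plus strand. F13a1 (74145) spans chr13:36867178-37050244, minus strand. The genes that overlap Tgm3 and F13a1 had at most 7 counts in any mouse. Rabggta and Gmpr2, which flank Tgm1, differed little between Vehicle and Sham, with log2 fold changes of 0.17 (standard error, SE, 0.11, edgeR adjusted p = 0.232) and 0.25 (SE 0.13, edgeR adjusted p = 0.131).

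The bases before a RefSeq start site (GRCm38.p6) are shown for Tgm1, the member with the widest range, and for F13a1 and Tgm3, which differed from it in response. Promoter windows were held for 3 of the 4 members, and none for Tgm2. Each line gives the 250 bases before the start, in the direction of the gene, with letters matching a searched motif in capitals. The Tgm1 window is chr14:55713493-55713742 and lies inside the interval of Tgm1 given above. The F13a1 window is chr13:37050245-37050494, and the Tgm3 window is chr2:130012090-130012339. The latter lies inside the interval of Tgm3 given above, and its first bases overlap Gm52561, which had 0 counts in every mouse.
Tgm1: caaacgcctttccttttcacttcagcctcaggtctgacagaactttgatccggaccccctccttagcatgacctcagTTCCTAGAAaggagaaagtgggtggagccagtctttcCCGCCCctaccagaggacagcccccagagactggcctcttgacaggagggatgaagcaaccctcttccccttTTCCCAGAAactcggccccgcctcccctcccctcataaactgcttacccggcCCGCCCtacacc
F13a1: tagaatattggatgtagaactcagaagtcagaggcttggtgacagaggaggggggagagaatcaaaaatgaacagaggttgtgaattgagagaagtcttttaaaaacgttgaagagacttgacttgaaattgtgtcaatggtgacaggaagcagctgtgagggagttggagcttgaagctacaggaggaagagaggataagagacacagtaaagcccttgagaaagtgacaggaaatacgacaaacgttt
Tgm3: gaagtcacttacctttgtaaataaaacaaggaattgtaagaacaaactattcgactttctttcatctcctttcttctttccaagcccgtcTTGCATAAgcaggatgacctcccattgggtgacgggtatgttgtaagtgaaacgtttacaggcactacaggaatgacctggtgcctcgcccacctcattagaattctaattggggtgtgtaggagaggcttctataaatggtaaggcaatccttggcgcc

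The motifs searched on both strands were an AP-1 site (TGANTCA), an SP1 box (GGGCGG), a C/EBP site (TTGCNNAA) and a STAT site (TTCNNNGAA), in windows that also held the 50 bases after the start. The Tgm1 window held the STAT letters at positions -173 to -165 and again at -64 to -56, counted from the start, and the SP1 letters at -136 to -131 and -12 to -7. Of 32851 promoter windows, 8.3% held the STAT letters and 35.7% the SP1 letters. The second Tgm1 start had only the C/EBP letters, at positions 32 to 39 after the start. Tgm3 held the C/EBP letters at -160 to -153, found in 10.8% of windows. Neither F13a1 window held any of these letters, and no member's window held the AP-1 letters, which 7.81% of windows did.

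Levels are given as CPM, the count divided by the library size (in units of 1e6) and by edgeR's TMM factor. Library totals ran from 17960353 to 22216315 counts, so 3 counts, the limit that a count of 0 allows, were worth 0.129 to 0.173 CPM. All 4 members passed the filter on low counts, as did 17558 genes in all.

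Tgm1 was close to absent in Sham tissue and abundant after ischemia. It had 7, 5, 10 and 14 counts in Sham mice 1 to 4, which are 0.404, 0.272, 0.548 and 0.726 CPM. In Vehicle mice 1 to 4 it had 4777, 3555, 960 and 1602 counts, or 217, 153, 51.7 and 86.3 CPM. LJP mice 1 to 4 had 1312, 1284, 1622 and 831 counts, or 59.6, 65.6, 88.2 and 46.3 CPM. Every occluded mouse, treated or not, stood above every Sham mouse, while Vehicle and LJP mice overlapped. The means were 0.487 ± 0.195 CPM in Sham, 127 ± 73.1 in Vehicle and 64.9 ± 17.5 in LJP (SD, n = 4 each), so the Vehicle mean was 260 times and the LJP mean 133 times the Sham mean. The highest Vehicle mouse was 4.2 times the lowest, whereas the LJP mice spanned a 1.9-fold range.

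Tgm2, the widely expressed enzyme, had a clear level already in Sham tissue. It measured 16, 15.3, 17.2 and 18.0 CPM in Sham mice 1 to 4. Vehicle mice had 139, 245, 53.1 and 57.2 CPM, and LJP mice 40.6, 24.4, 62.2 and 28.3 CPM. All occluded mice were above all Sham mice, and LJP mouse 3 was above Vehicle mice 3 and 4. The means were 16.6 ± 1.21, 124 ± 90.0 and 38.9 ± 17.0 CPM (SD, n = 4 each) in Sham, Vehicle and LJP.

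F13a1 was low in Sham tissue and varied most among Vehicle mice. Sham mice 1 to 4 had 1.90, 3.32, 2.19 and 3.21 CPM. Vehicle mice had 43.3, 68.7, 8.23 and 14.3 CPM, an 8.35-fold range, and LJP mice 5.04, 3.32, 10.7 and 4.12 CPM. LJP mouse 2 was at the level of the highest Sham mouse, and LJP mouse 3 was above Vehicle mouse 3. The means were 2.66 ± 0.716 CPM in Sham, 33.7 ± 28.0 in Vehicle and 5.79 ± 3.32 in LJP (SD, n = 4 each).

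Tgm3, the hair follicle enzyme, was low in all groups. Sham mice had 2.65, 3.81, 3.12 and 4.25 CPM, Vehicle mice 1.72, 1.72, 3.28 and 3.34, and LJP mice 2.63, 4.45, 3.43 and 4.12. The groups overlapped, and only Vehicle mice 1 and 2, which had the highest Tgm1, Tgm2 and F13a1, were below every Sham and LJP mouse. The summed level of 6 neuron markers (such as Snap25 and Map2) was also lowest in those mice, at 3240 and 2552 CPM against 4013 to 5309 CPM in the other 10; its part in the Tgm3 values was not tested.

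**Figure D1:**
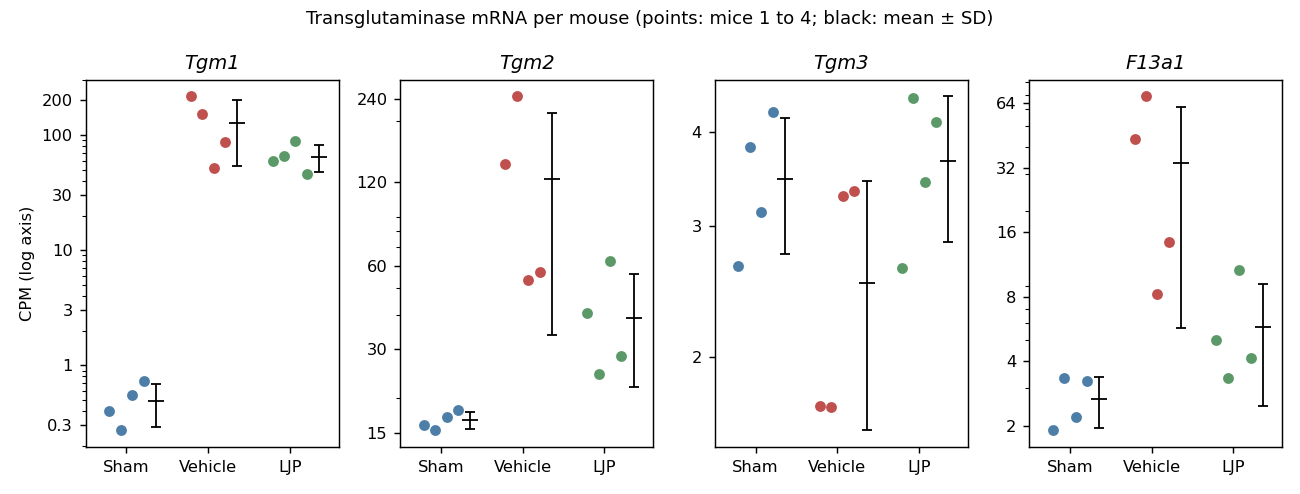
CPM of Tgm1, Tgm2, Tgm3 and F13a1 on log axes, with 1 point per mouse (mice 1 to 4 from left to right in each group) and the mean ± SD in black. Tgm1 lies at or below 0.726 CPM in Sham mice and at or above 46.3 CPM in all Vehicle and LJP mice, whereas Tgm3 stays between 1.72 and 4.45 CPM.

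Described by the fitted values, Vehicle mice exceeded Sham mice by a log2 fold change of 8.0 (SE 0.54) for Tgm1, 3.66 (SE 0.62) for F13a1 and 2.90 (SE 0.46) for Tgm2, and Tgm3 differed by -0.47 (SE 0.28). Vehicle and Sham mice did not overlap for 3 of the 4 members, and 20.7% of all genes tested were higher in the same manner. That comparison led to the choice of the members, so nothing is read from this count.

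The comparison of LJP with Sham mice asked how much of the change was left under treatment. The comparison behind the choice of members did not include the LJP mice, but it included the same Sham mice. Earlier results of these data were also known, so the result for Tgm1 is not independent of the choice. Tgm1 was called higher, at a log2 fold change of 7.03 (SE 0.54, edgeR adjusted p = 5.9e-05) and ranked 3 of 17558 genes by p. It was the 1 member of 4 called higher, beside 3.85% of all genes tested, and none was called lower, beside 0.9%. Tgm2 had a log2 fold change of 1.23 (SE 0.45, edgeR adjusted p = 0.152), although each LJP mouse exceeded each Sham mouse. F13a1 had 1.11 (SE 0.61, edgeR adjusted p = 0.359) with overlapping groups, and Tgm3 had 0.08 (SE 0.27, edgeR adjusted p = 0.917). LJP mice lay above all Sham mice for Tgm1 and Tgm2, 2 of 4 members, beside 12.9% of all genes. In a fit of Sham and LJP mice alone, the calls for Tgm2 (edgeR adjusted p = 0.0018) and F13a1 (edgeR adjusted p = 0.027) were gained at nearly the same fold changes, while 12.1% of all genes were called higher. Leaving out Vehicle mouse 2 also gained Tgm2 (edgeR adjusted p = 0.030), beside 7.77% of all genes. Without LJP mouse 3, the LJP mouse with the highest Tgm2 and F13a1, the log2 fold changes were 0.91 for Tgm2 (edgeR adjusted p = 0.414) and 0.65 for F13a1 (edgeR adjusted p = 0.731).

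The comparison of LJP with Vehicle mice asked what the polysaccharide changed after occlusion, and it shares the Vehicle mice with the comparison behind the choice. The LJP mean was 1.95 times lower for Tgm1, 3.18 times lower for Tgm2 and 5.82 times lower for F13a1, but edgeR called none of the 4 members. The log2 fold changes were -0.97 for Tgm1 (SE 0.35, edgeR adjusted p = 0.103), -1.67 for Tgm2 (SE 0.44, edgeR adjusted p = 0.0678), -2.55 for F13a1 (SE 0.58, edgeR adjusted p = 0.0678) and 0.54 for Tgm3 (SE 0.28, edgeR adjusted p = 0.202). Of all genes, 0.0228% were called lower and 0% higher by edgeR. At an unadjusted p under 0.05, 3 of the 4 members were lower (Tgm1, Tgm2 and F13a1), and DESeq2 called 2 (Tgm2 at an adjusted p of 0.0157 and F13a1 at 0.0041). Of all genes, 17.4% were lower and 12.3% higher at an unadjusted p under 0.05, and DESeq2 called 9.36% lower and 3.81% higher. The groups overlapped for all 4 members, while 5.91% of all genes had LJP mice below all Vehicle mice and 5.77% had them above. The exact two-sided permutation p over mice, which cannot go under 0.0286 for 4 against 4, was 0.2 for Tgm1, 0.0857 for Tgm2, 0.0571 for F13a1 and 0.143 for Tgm3. Without Vehicle mouse 3, the Vehicle mouse with the lowest Tgm1, Tgm2 and F13a1, edgeR called all 3 lower, with adjusted p-values of 0.0147, 0.0131 and 0.0089, beside 13.1% of all genes called lower in that fit. Without Vehicle mouse 4 it called Tgm2 and F13a1, each at an adjusted p of 0.031, beside 8.38% of all genes. With no filter on low counts it called the same pair, at adjusted p-values of 0.0435 and 0.0410, beside 1.8% of all genes. Without Vehicle mouse 1, with the highest Tgm1, the Tgm1 log2 fold change was -0.58 (edgeR adjusted p = 0.258). Without Vehicle mouse 2, with the highest Tgm2 and F13a1, Tgm2 had -1.10 (edgeR adjusted p = 0.114) and F13a1 -1.93 (edgeR adjusted p = 0.0935). In a fit of Vehicle and LJP mice alone the edgeR adjusted p rose to 0.230 for Tgm1 and 0.208 for Tgm2 and F13a1.

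**Figure D2:**
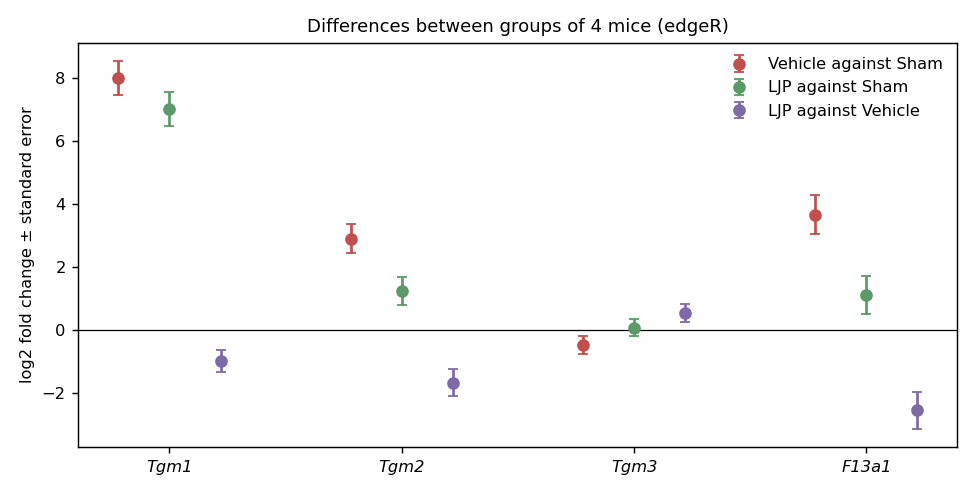
Log2 fold changes of the 4 members (points) with their standard errors (bars) in the 3 comparisons of groups of 4 mice. Tgm1 is at 7.03 for LJP against Sham while Tgm2 and F13a1 are at 1.23 and 1.11, and the values for LJP against Vehicle run from -2.55 for F13a1 to 0.54 for Tgm3.

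Levels of different genes were compared as CPM per kilobase of transcript length. In Sham tissue the order was Tgm2 at 4.68 ± 0.342, Tgm3 at 0.816 ± 0.168, F13a1 at 0.677 ± 0.182 and Tgm1 at 0.15 ± 0.0601 CPM per kb (SD, n = 4 mice), with Tgm3 and F13a1 within each other's spread. In Vehicle tissue Tgm1 at 39.2 ± 22.6 and Tgm2 at 34.8 ± 25.4 CPM per kb did not differ beyond their spread, and F13a1 followed at 8.57 ± 7.12 and Tgm3 at 0.594 ± 0.217. In LJP tissue the order of the means was Tgm1 at 20.1 ± 5.40, Tgm2 at 10.96 ± 4.79, F13a1 at 1.47 ± 0.846 and Tgm3 at 0.863 ± 0.190 CPM per kb. In LJP mouse 2, however, Tgm3 at 1.05 was above F13a1 at 0.846 CPM per kb.

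Tgm2 had the highest level of the members in all 4 Sham mice and in Vehicle mouse 2, and Tgm1 in the other 7 occluded mice. Shares were taken of the summed length-scaled level of the 4 members, Tgm4, Tgm5, Tgm6 and Tgm7. Of 6 relatives, Epb42 and F13b were left out of that sum. Tgm1 held 1.26 to 2.87% in Sham mice, 34.8 to 56.2% in Vehicle mice and 55.3 to 68.3% in LJP mice. Tgm2 held 64.8 to 69.95%, 33.0 to 50.9% and 23.2 to 35.6%. The summed level was 6.96 ± 0.600 CPM per kb in Sham, 84.2 ± 50.4 in Vehicle and 34.1 ± 10.6 in LJP mice (SD, n = 4 each).

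Whether the members differed unequally between LJP and Vehicle was read from ratios within each mouse. The mean log2 ratio of Tgm1 to Tgm2 was 0.79 in LJP and 0.13 in Vehicle mice, a difference of 0.66 that was within the spread of the mice (exact two-sided permutation p = 0.2). The log2 ratio of Tgm1 to F13a1 was 3.44, 4.11, 2.99 and 3.34 in LJP mice 1 to 4 and 2.31, 1.15, 2.58 and 2.55 in Vehicle mice 1 to 4, so the groups did not overlap. Its difference of 1.32 had an exact permutation p of 0.0286, the smallest that 4 against 4 mice allow. The log2 ratio of Tgm2 to F13a1 differed by 0.66 (exact permutation p = 0.0571). Adjusted over these 3 ratios, the values were 0.2, 0.0857 and 0.0857, and the ratios to F13a1 were chosen after the values were seen.

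Among the 6 relatives, Tgm4, the prostate transglutaminase, was the 1 that passed the filter on low counts. It measured 1.38, 1.31, 1.64 and 1.76 CPM in Sham mice, 3.77, 4.08, 1.40 and 1.67 in Vehicle mice and 1.73, 1.18, 2.56 and 1.5 in LJP mice. The higher values were those of Vehicle mice 1 and 2, and the groups overlapped (Vehicle against Sham log2 fold change 0.85, SE 0.36, edgeR adjusted p = 0.0788). LJP mice differed from Vehicle mice by -0.66 (SE 0.36, edgeR adjusted p = 0.229) and from Sham mice by 0.19 (SE 0.37, edgeR adjusted p = 0.838). Tgm5, Tgm6, Tgm7, the erythrocyte membrane protein Epb42 and the factor XIII carrier subunit F13b had at most 5, 7, 18, 2 and 1 counts in any mouse.

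Genes that work with the enzymes were counted in lists against the share of all genes called, which in Vehicle against Sham was 22.7% higher and 17.3% lower. Of 22 cornified envelope genes, the skin proteins that Tgm1 cross-links or that surround them, 6 were tested, 3 rose and 1 fell, and their median log2 fold change was 0.44 against 0.00 over all genes. Cdsn, corneodesmosin, rose from 2.00 to 5.24 CPM (log2 fold change 1.38, SE 0.22, edgeR adjusted p = 0.0007), and the keratin Krt10 fell from 19.2 to 8.87 CPM (log2 fold change -1.12, SE 0.14, edgeR adjusted p = 0.00022). Ppl, periplakin, rose by 1.13 (SE 0.26, edgeR adjusted p = 0.0050). Of the other 16 envelope genes, 12 had no count in any Vehicle mouse. In LJP against Sham, where 3.85% of all genes were called higher and 0.9% lower, 1 of the 6 was called higher and 1 lower, namely Cdsn (log2 fold change 1.04, edgeR adjusted p = 0.0155) and Krt10 (-0.87, edgeR adjusted p = 0.0038).

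Among 20 partners and substrates of Tgm2 (integrins, syndecans and matrix proteins), 15 rose and 1 fell in Vehicle against Sham, with a median log2 fold change of 1.52. Lgals3, the lectin galectin-3, had the largest of the named changes, with 0.714 CPM in Sham, 54.1 in Vehicle and 28.9 in LJP mice (Vehicle against Sham log2 fold change 6.22, SE 0.52, edgeR adjusted p = 4.65e-05). Thbs1, the matrix glycoprotein thrombospondin-1, rose by 5.45 (SE 0.99, edgeR adjusted p = 0.0016), Itga5, the fibronectin receptor subunit, by 2.68 (SE 0.53, edgeR adjusted p = 0.0024), and S100a4, a calcium-binding protein, by 3.95 (SE 0.42, edgeR adjusted p = 0.0001). In LJP against Vehicle edgeR called 0 of the 20, with a median of -0.95, while 12 were lower at an unadjusted p under 0.05 and DESeq2 called 11 lower (17.4% and 9.36% of all genes). In LJP against Sham 6 were called higher (3.85% of all genes), with a median of 0.50, among them Lgals3 (5.31, SE 0.51, edgeR adjusted p = 0.00028) and S100a4 (2.59, SE 0.42, edgeR adjusted p = 0.0037).

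Of 12 genes of factor XIII, fibrin and fibrinolysis, 4 were tested and 3 rose in Vehicle against Sham. They were Plau, urokinase (3.02, SE 0.45, edgeR adjusted p = 0.00059), Plat, tissue plasminogen activator (1.69, SE 0.37, edgeR adjusted p = 0.0039), and F3, tissue factor (0.72, SE 0.13, edgeR adjusted p = 0.0017). In LJP against Vehicle edgeR called 0 of the 4, 2 were lower at an unadjusted p under 0.05 (Plau at -1.38 and Plat at -1.02), and DESeq2 called the same number lower (17.4% and 9.36% of all genes).

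Reactive astrocyte genes were read beside Tgm1. All 11 other genes of the A2 list rose in Vehicle against Sham (median log2 fold change 3.55), as did all 13 of the list shared by reactive astrocytes of any kind (median 3.60) and 10 of 11 of the A1 list, the set linked to inflammation (median 1.96). Serpina3n, a secreted protease inhibitor, had 9.75, 511 and 192 CPM in Sham, Vehicle and LJP mice and rose by 5.71 (SE 0.40, edgeR adjusted p = 1.54e-05). Gfap, the astrocyte filament protein, rose by 3.87 (SE 0.28, edgeR adjusted p = 1.54e-05), Clcf1, a cytokine, by 3.85 (SE 0.43, edgeR adjusted p = 0.00012), and S100a10, a partner of annexin, by 1.75 (SE 0.18, edgeR adjusted p = 9.6e-05). Emp1, a membrane protein of the A2 list, rose by 5.25 (SE 0.68, edgeR adjusted p = 0.00024), Timp1, an inhibitor of matrix proteases, by 5.71 (SE 0.78, edgeR adjusted p = 0.00034), and Hspb1, a small heat shock protein, by 3.38 (SE 0.60, edgeR adjusted p = 0.0014). Slc10a6, a steroid sulfate transporter of the A2 list, had 0.0136, 5.11 and 0.521 CPM in Sham, Vehicle and LJP mice. In LJP against Sham 6 of the 11 A2 genes, 8 of the 13 shared genes and 3 of the 11 A1 genes were called higher (3.85% of all genes), with medians of 1.85, 2.80 and 0.94. Gfap was 3.47 higher (SE 0.27, edgeR adjusted p = 6.04e-05), Serpina3n 4.30 (SE 0.38, edgeR adjusted p = 0.00016) and Clcf1 3.31 (SE 0.42, edgeR adjusted p = 0.0012). In LJP against Vehicle the medians of the 3 lists were -1.70, -1.38 and -1.06. There Emp1 had -2.50, Timp1 -2.81 and Hspb1 -2.59, each with an edgeR adjusted p of 0.0678. Of the 35 genes of the 3 lists edgeR called 0, 29 were lower at an unadjusted p under 0.05 and DESeq2 called 25 lower (17.4% and 9.36% of all genes). Of 7 general astrocyte markers, 2 rose (Aldh1l1 by 1.12 and Sox9 by 0.74) and 1 fell in Vehicle against Sham. The sum of these 7 was 4154 to 4611 CPM in Sham mice, 2744, 2673, 4116 and 4196 CPM in Vehicle mice 1 to 4 and 3832 to 4175 CPM in LJP mice, so it was lowest in the Vehicle mice with the highest Tgm1. The sum is weighted to the most abundant genes. By the mean log2 difference from Sham over the 7, Vehicle mice 1 and 2 had -0.01 and 0.10. These were the lowest of the occluded mice but not below the Sham mice, at -0.03 to 0.03. Aldh1l1 was highest in these 2 mice, at 141 and 168 CPM.

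Markers of other cells that could carry the transcripts were summed in each mouse. Keratinocyte markers, the cell type for which Tgm1 is best known, summed to 3.75 to 4.96 CPM in Sham, 3.12 to 8.12 in Vehicle and 2.51 to 4.13 in LJP mice, all groups overlapping. The highest sums, 6.99 and 8.12 CPM, were those of Vehicle mice 1 and 2, which also had the highest Tgm1, and their part in the Tgm1 level was not tested. Of these 8 genes, 3 were tested and edgeR called 0 in each comparison. In Vehicle against Sham, 0 passed an unadjusted p under 0.05 (27.1% of all genes were higher and 22.8% lower) and 0 were called by DESeq2. Between LJP and Vehicle mice, 1 of the 3 was lower both at an unadjusted p under 0.05 and by DESeq2 (17.4% and 9.36% of all genes), namely Sfn, the epithelial 14-3-3 protein stratifin (log2 fold change -0.91, SE 0.31, edgeR adjusted p = 0.0951). Sfn had means of 3.05, 4.65 and 2.49 CPM in Sham, Vehicle and LJP mice, so on average it made up most of the keratinocyte sum. Microglia markers summed to 202 to 210 CPM in Sham, 261 to 572 in Vehicle and 350 to 611 in LJP mice, and 5 of 7 were called higher both in Vehicle against Sham and in LJP against Sham, beside 22.7% and 3.85% of all genes (Aif1 by 1.83 and 1.75). For these, edgeR called 0 in LJP against Vehicle, with 0 at an unadjusted p under 0.05 and 0 by DESeq2. The part of astrocytes and microglia in the Tgm1 level was not tested.

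F13a1 was read beside the cells that make it. All 8 markers of border macrophages, the macrophages of meninges and vessels, rose in Vehicle against Sham (median log2 fold change 2.72), among them the scavenger receptor genes Stab1 (3.12, SE 0.35, edgeR adjusted p = 0.00012) and Cd163 (2.02, SE 0.46, edgeR adjusted p = 0.0050). Their sum was 34.5 to 36.8 CPM in Sham, 187 to 471 in Vehicle and 90.6 to 247 in LJP mice. In LJP against Sham 1 of the 8 was called higher, beside 3.85% of all genes, namely Stab1 (2.38, SE 0.34, edgeR adjusted p = 0.0019). Monocyte markers summed to 100 to 102, 252 to 1230 and 140 to 278 CPM, and all 4 of the 6 that were tested rose in Vehicle against Sham (Fn1, fibronectin, by 2.58 and Chil3, a chitinase-like protein, by 6.37). Fn1, with means of 85.2, 510 and 157 CPM in Sham, Vehicle and LJP mice, made up most of the sum in each group. Chil3 had means of 0.582, 49.0 and 0.885 CPM. In LJP against Vehicle edgeR called 0 of these 12 tested macrophage and monocyte genes, whose medians were -1.5 and -1.68. At an unadjusted p under 0.05, 9 were lower, and DESeq2 called 7 lower (17.4% and 9.36% of all genes).

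Neutrophil markers, such as S100a8 and S100a9, did not pass the filter on low counts. Their sums were 0.207 to 0.404 CPM in Sham, 0.256 to 1.11 in LJP and 165, 40.3, 0.754 and 5.33 in Vehicle mice 1 to 4, so the high values came from Vehicle mice 1 and 2; DESeq2 called 5 of the 7 higher in Vehicle against Sham (20.4% of all genes) and 5 lower in LJP against Vehicle (9.36% of all genes). Platelet markers summed to 130 to 143, 94.3 to 115 and 106 to 129 CPM in the 3 groups, and of the 3 tested, 2 rose and 1 fell in Vehicle against Sham. The 2 that rose were Itga2b and Pf4. Itga2b had means of 2.32, 8.43 and 4.30 CPM in Sham, Vehicle and LJP mice, and Pf4 0.448, 11.8 and 0.994 CPM. The fall of the platelet sum therefore came from other genes of the list, which held most of it. Endothelial markers summed to 223 to 238 CPM in Sham, 707, 1521, 319 and 379 in Vehicle mice 1 to 4 and 222 to 289 in LJP mice, and 5 of 7 rose in Vehicle against Sham (Cldn5 by 2.00, Pecam1 by 2.91 and Cdh5 by 2.94). Of 8 pericyte and fibroblast markers 6 rose, and their sum reached 1201 CPM in Vehicle mouse 2 against 240 to 327 in the other Vehicle mice. F13a1 and Tgm2 were highest in that same mouse. In LJP against Vehicle edgeR called 0 of these 15 vessel genes, 12 were lower at an unadjusted p under 0.05 and DESeq2 called 11 lower (17.4% and 9.36% of all genes). Of 6 neuron markers, 3 fell in Vehicle against Sham. The part of each cell type in the levels of F13a1 and Tgm2 was not tested.

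**Figure D3:**
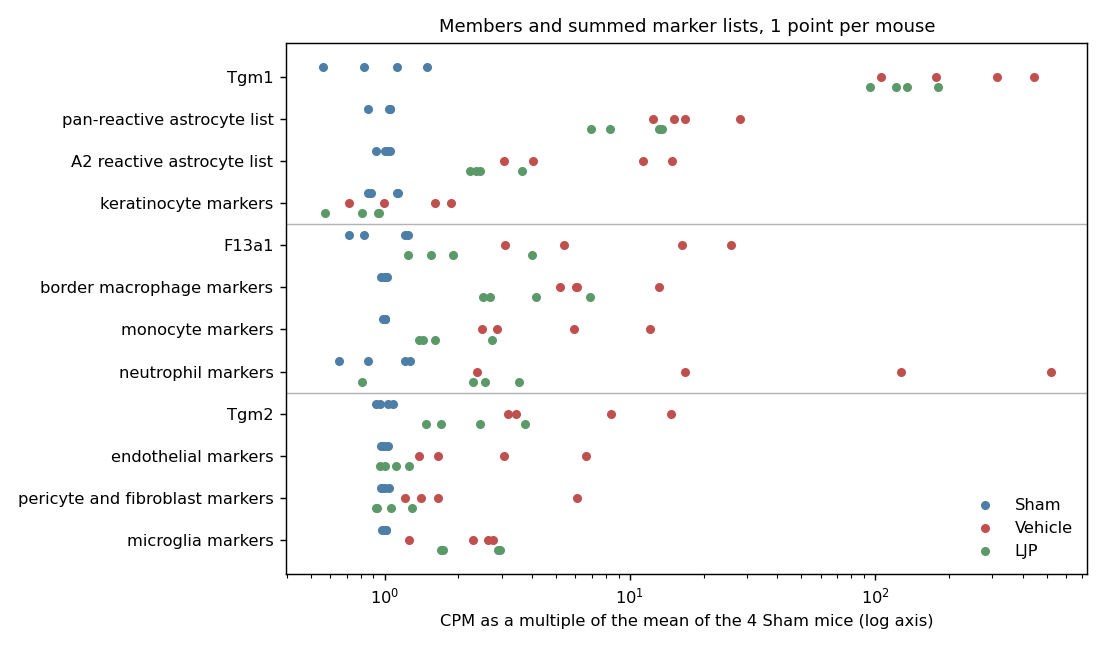
Tgm1, F13a1 and Tgm2 and the summed CPM of 9 marker lists, as a multiple of the mean of the 4 Sham mice (log axis), with 1 point per mouse. LJP mice lie at 95.0 to 181 times the Sham mean for Tgm1, at 6.92 to 13.6 times for the shared reactive astrocyte list and at 1.25 to 4.01 times for F13a1.

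The genes whose pattern was most like each member were those with the smallest root mean square difference in mean-centred log2 CPM over the 12 mice. For Tgm1 they were Lilrb4a (0.89), Lgals3 (0.92), Serpina3n (1.16), Msr1 (1.32) and Lilr4b (1.32), of which the pair of Lilr genes encode closely related immune receptors whose reads may be shared and Msr1 is a macrophage scavenger receptor. Relative to its own mean, Tgm1 was lower than all 5 in every Sham mouse and higher than all 5 in every LJP mouse. Lilrb4a had 0.151, 20.5 and 9.09 CPM in Sham, Vehicle and LJP mice and fitted log2 fold changes of 7.03 in Vehicle against Sham and 5.86 in LJP against Sham. For Msr1 the same fold changes were 6.18 and 4.52. These genes were chosen for their pattern over the same mice, so the values carry no test. With a prior count of 0.5 instead of 2, 3 of these 5 genes were again among the nearest.

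For Tgm2 the nearest genes were Pdpn (0.16), Piezo1 (0.16), Mvp (0.19), Zc3h12a (0.20) and Ifitm2 (0.21). Pdpn, the membrane glycoprotein podoplanin, had 7.68, 55.4 and 18.4 CPM, and Piezo1, a channel opened by stretch, 12.1, 82.6 and 25.6 CPM in Sham, Vehicle and LJP mice. For F13a1 they were Adamts1 (0.30), Ifitm2 (0.33), Tm4sf1 (0.34), Tubb6 (0.34) and Epha2 (0.35), among which Adamts1, a secreted protease, had 13.7, 133 and 23.2 CPM. Ifitm2, an antiviral membrane protein, was thus near both Tgm2 and F13a1. For Tgm3 they were Emx1 (0.17), Ptpn3 (0.18), Neurod1 (0.18), Prodh (0.18) and Gm26974 (0.19), and Emx1 and Neurod1 are transcription factors of cortical excitatory neurons. Emx1 had 19.3, 15.5 and 19.5 CPM and Neurod1 7.78, 4.93 and 7.03 CPM in Sham, Vehicle and LJP mice. At the prior count of 0.5, all 5 genes stayed for Tgm2 and for Tgm3, and 4 of 5 for F13a1.

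**Figure D4:**
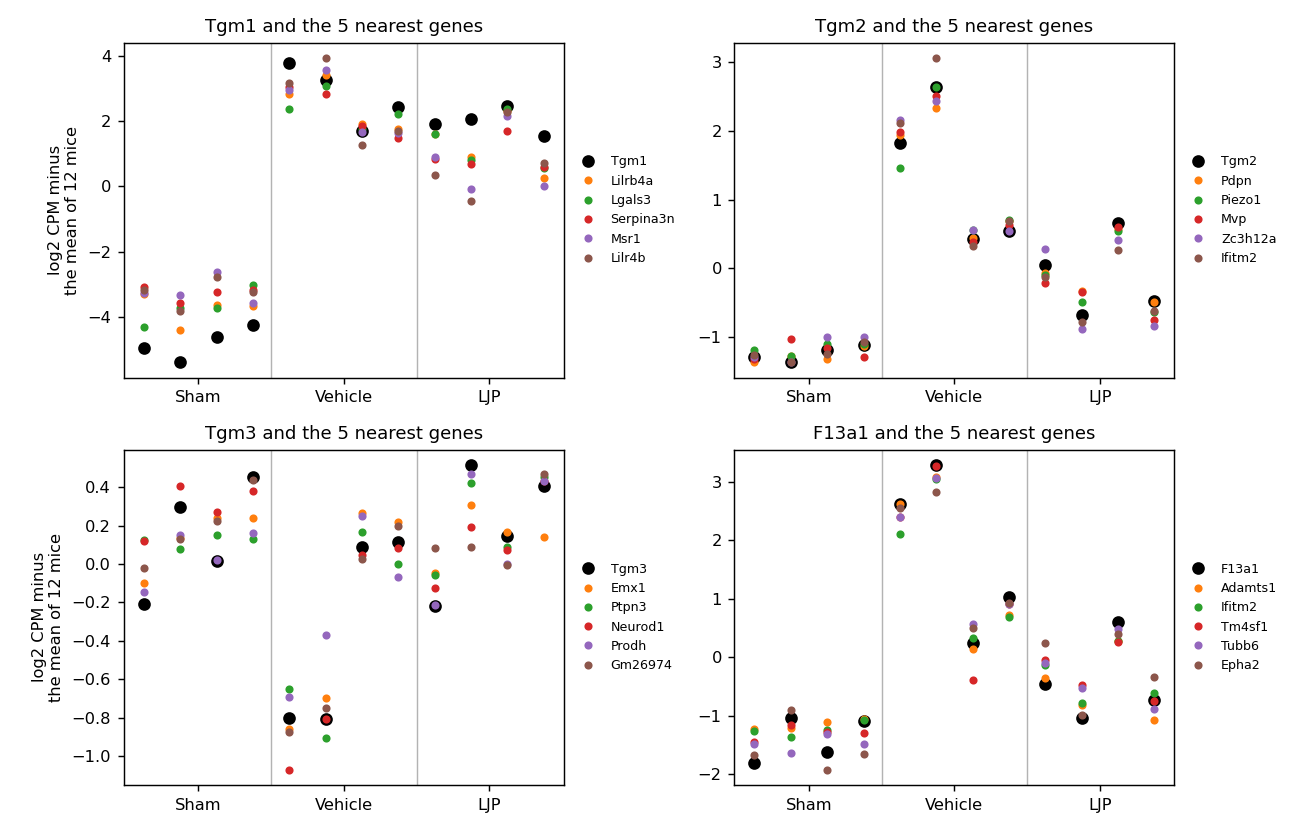
Log2 CPM minus the mean of the 12 mice for each member (large black points) and its 5 nearest genes (small points), with mice 1 to 4 of each group from left to right. Tgm1 lies below its nearest genes in Sham mice and above them in LJP mice, and Tgm3 and its nearest genes are lowest in Vehicle mice 1 and 2.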

How the data were processed

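The study sequenced poly(A) RNA of 12 mice, 4 per group, as paired-end reads, and names the tissue of all groups, Sham included, as ischemic hemispheres. The authors deposited 1 table holding, for each gene and mouse, raw counts, with gene positions and lengths; the submitters' processing notes name featureCounts, DESeq2 and the builds GRCm39 and mm10, and the aligner and strand setting are not given in the sources used here. Starts and ends equalled those of RefSeq GRCm38.p6 for 39754 of 39756 genes, so coordinates are GRCm38. The deposited counts were analysed with edgeR 4.0.16 in R 4.3.3 (filterByExpr, TMM factors, 1 quasi-likelihood model of all 12 mice with a coefficient per group), with Benjamini-Hochberg adjustment over 17558 genes and a threshold of 0.05. This model was chosen in place of the authors' DESeq2, which (version 1.42.0) served as an alternative. A standard error is the log2 fold change divided by the square root of F. Single values were tested by two-sided exact permutation over mice on log2(CPM + 0.5). The scripts were tested on simulated data.

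The members and gene lists were chosen with earlier results of these data known. Some genes stand on 2 lists (Fn1, Vtn, Pdgfrb and Pf4). Genes were named by a rule: all members and relatives, per list at most the 2 genes of smallest p in Vehicle against Sham and the 2 in LJP against Vehicle, and the 5 nearest genes per member over log2 CPM with a prior count of 2. No p is given for members in Vehicle against Sham. Same-numbered mice did not deviate together (12 pairs, r from -0.32 to 0.11, 1 above 0.1), so mice were not paired. Alternatives were RLE factors, library size only, no filter, DESeq2, fits of 2 groups, a replicate block, each mouse left out and other pseudocounts. No 2 libraries of a group agreed within sampling noise (chi-square per degree of freedom at least 2.48). Limits of a count of 0 (3 counts) cover counting error only. The log2 fold changes come from these fits, and sequences are RefSeq promoter windows.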

Additional observations from a re-analysis of the deposited data

Results flagged for a closer look

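Among 93 sets of 4 mice checked for a single value far from the other 3, 10 were flagged, and chance flags about 1 in 20. The number in each case is the gap to the nearest mouse divided by the range of the group, flagged above the 95% critical value of Dixon's test. Of the members, the share of Tgm1 in the summed length-scaled level stood out in LJP mouse 2, the highest at 68.3% against 55.3 to 57.3% in the other LJP mice (0.841). The share of Tgm4, Tgm5, Tgm6 and Tgm7 together stood out in LJP mouse 4, the highest at 2.56% (0.915).

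Vehicle mouse 2 was far above the other Vehicle mice in the summed CPM of factor XIII and fibrin genes (0.940), of border macrophage markers (0.889) and of pericyte and fibroblast markers (0.909). LJP mouse 3 was far above the other LJP mice for the relatives (0.922), the A2 astrocyte list (0.842) and monocyte markers (0.837). Sham mouse 1 was far below the other Sham mice for the shared reactive astrocyte list (0.975) and the A1 list (0.866). The CPM of Tgm1, Tgm2, Tgm3 and F13a1 had no such mouse in any group.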

How the results depend on the processing

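For Tgm1, LJP against Sham was called by edgeR or DESeq2 under all 18 alternatives, with log2 fold changes from 6.83 to 7.29. Vehicle against Sham, which carries no test, kept its direction for all 4 members under all 18, from 7.61 to 8.26 for Tgm1, 2.32 to 3.14 for Tgm2, 3.04 to 3.98 for F13a1 and -0.64 to -0.32 for Tgm3. In LJP against Vehicle the directions also held. With no filter on low counts, Tgm2 (-1.66, adjusted p = 0.0435) and F13a1 (-2.54, adjusted p = 0.0410) became called, as they did with DESeq2 (-1.67 and -2.54). With mice left out, values ranged from -1.22 to -0.58 for Tgm1, -1.99 to -1.10 for Tgm2 and -3.01 to -1.93 for F13a1. In the fit of the 2 groups compared, Tgm2 (1.22) and F13a1 (1.11) became called in LJP against Sham. With mice left out, Tgm2 ranged from 0.91 to 1.39 and F13a1 from 0.65 to 1.31 there, and Tgm3 from -0.03 to 0.21, turning sign without Sham mouse 1 (-0.026) and without LJP mouse 2 (-0.0317). Tgm4 ranged from -0.0525 (without LJP mouse 3) to 0.336 in LJP against Sham. The ratio of Tgm1 to F13a1 ranged from 0.99 to 1.48 with mice left out and without Vehicle mouse 2 was 0.99, with groups that still did not overlap (exact permutation p = 0.0571 for 3 against 4 mice). The ratio of Tgm2 to F13a1 ranged from 0.55 to 0.86, reaching 0.0286 (exact permutation) without Vehicle mouse 3. The cause of these changes was not tested.

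With the replicate number as a block, the Tgm1 log2 fold change was 7.04 in LJP against Sham (edgeR adjusted p = 0.0016) and -0.85 in LJP against Vehicle (edgeR adjusted p = 0.183), and no call of a member changed. For 2 of 12 mice the best match in another group had the same number. The block moved the genes called from 834 to 464 in LJP against Sham and from 4 to 2 in LJP against Vehicle.

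The genes called in LJP against Vehicle, 4 by edgeR, numbered 593 without the filter, 2307 with DESeq2, 2 with those 2 groups alone, 1223 at the thresholds of the study's methods, 3857 once Vehicle mouse 3 was left out and 2095 for Vehicle mouse 4. In LJP against Sham, 834 became 1454 with DESeq2, 4043 with those 2 groups alone, 2357 without Vehicle mouse 2 and 393 without LJP mouse 3. In Vehicle against Sham 7014 became 3807 at the study's thresholds. Depth limits Tgm1 in Sham mice, where 5 to 14 counts set the base of its fold change.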
